A study of Mus musculus with 8 samples.

Results

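The alkaline phosphatase genes of the mouse were examined in RNA from intestinal epithelial cells: Akp3, Alpi, Alppl2 and Alpl, which are 4 of the 54139 genes in the deposited tables. They were taken by gene name, and the set was chosen by the Akp3 values of these libraries, which were higher in cKO, so the cKO and WT levels of Akp3 are described here with no test. The cKO group consisted of 4 libraries from mice with a floxed Rictor allele and Villin-Cre (genotype given as Rictor Flox; Villin-Cre), and the WT group of 4 libraries from mice with Villin-Cre alone. Both groups therefore carry the Cre transgene, whose villin promoter is active throughout the intestinal epithelium. Rictor, the floxed gene, encodes a core subunit of mTOR complex 2. The labels state neither age, sex and intestinal segment nor whether different mice gave the libraries, so p-values measure only the spread between these samples, which may be technical.

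Alkaline phosphatases are zinc-dependent enzymes held on the outer face of the cell membrane by a glycosylphosphatidylinositol (GPI) anchor, and they remove phosphate groups from many substrates, among them bacterial lipopolysaccharide and extracellular nucleotides. In the mouse gut Akp3 encodes the duodenal enzyme (dIAP) and Alpi the enzyme found along the whole intestine (gIAP), and both sit on the brush border of enterocytes. Alppl2 encodes the embryonic form, and Alpl the tissue-nonspecific form known from bone, liver and kidney.

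Total counts ran from 15110451 to 18351748 per cKO library and from 15982538 to 18708335 per WT library. Rictor itself had 30.4, 39.6, 20.8 and 40.6 CPM (counts scaled to library depth) in cKO libraries 1 to 4. It had 41.7, 42.4, 57.3 and 51.4 CPM in WT libraries 1 to 4. These counts are per gene, and the floxed exons were not counted apart. The Rictor log2 fold change of cKO over WT was -0.55 ± 0.20 (SE, edgeR adjusted p = 0.920), and -0.29 without library 3 of both groups. The epithelial markers Epcam (1572 ± 63.6 CPM in cKO and 1646 ± 77.8 CPM in WT) and Vil1 (1504 ± 259 and 1396 ± 420 CPM, SD, n = 4 each) were abundant in both groups. Crypt material was present as well, since the Paneth cell lysozyme Lyz1 reached 6651 ± 1418 CPM in cKO and 9077 ± 1959 CPM in WT. Sample quality weights were lowest in library 3 of cKO (0.192) and library 3 of WT (0.452). Library 1 of cKO came next at 0.607, and the remaining libraries had 1.21 to 2.42. Values without both libraries 3 stand beside several of the results. Fewer cells of a type and less RNA per cell cannot be told apart in such bulk samples.

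Akp3 (ENSMUSG00000036500, chromosome 1, 87124973 to 87127912, plus strand), Alpi (ENSMUSG00000079440, 87098002 to 87101606, minus strand) and Alppl2 (ENSMUSG00000026246, 87086694 to 87089928, minus strand) lie side by side on build GRCm38, with 23366 bases between Alpi and Akp3 and 8073 bases between Alppl2 and Alpi. Alpl (ENSMUSG00000028766, chromosome 4, 137741733 to 137796384, minus strand) lies elsewhere. The coding sequence of Akp3 was 82.6% identical to that of Alpi over 1645 aligned bases, 79.0% to that of Alppl2 and 66.9% to that of Alpl. Since close paralogs can share reads, the sequences that decide this are shown for the pair of intestinal genes. The first is the longest identical run of their coding sequences, 68 bases in exon 2 of both genes (chr1:87125202-87125269 in Akp3, plus strand, and chr1:87101269-87101336 in Alpi, minus strand), printed in capitals because every base is shared.
Akp3 and Alpi, identical run: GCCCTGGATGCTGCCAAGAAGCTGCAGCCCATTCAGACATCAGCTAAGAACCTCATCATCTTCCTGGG
The second is the 60-base stretch at which they are least alike among stretches aligned without a gap. It lies in exon 6 of both genes (chr1:87126367-87126426 in Akp3 and chr1:87100089-87100148 in Alpi), with the 19 differing bases in capitals.
Akp3, least alike stretch: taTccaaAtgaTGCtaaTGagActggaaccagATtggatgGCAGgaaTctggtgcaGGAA
Alpi, least alike stretch: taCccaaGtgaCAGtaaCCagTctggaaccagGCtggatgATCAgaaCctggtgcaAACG
Of all 50-base windows in the main Akp3 transcript, 35 of 1631 (2.15%) occurred exactly in a transcript of another gene, and that gene was Alpi in each case. Of the 100-base windows 0 of 1581 did, and of the Alpi windows of that length 0 of 2238 did. An error-free read of 100 bases from these annotated transcripts would thus match 1 of the 2 genes only. Read length and the counting of reads with several matches are not stated.

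The starts of the 3 clustered genes were also compared, because the genes are neighbours and paralogs. Below are the 200 bases before each start from RefSeq (GRCm38.p6), with 13-base blocks that all 3 share in capitals.
Akp3, chr1:87124754-87124953, plus strand: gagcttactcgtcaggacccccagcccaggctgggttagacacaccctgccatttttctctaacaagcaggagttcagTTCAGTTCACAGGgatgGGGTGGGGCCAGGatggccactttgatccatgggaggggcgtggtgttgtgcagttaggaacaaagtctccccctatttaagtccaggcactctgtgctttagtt
Alpi, chr1:87101607-87101806, minus strand: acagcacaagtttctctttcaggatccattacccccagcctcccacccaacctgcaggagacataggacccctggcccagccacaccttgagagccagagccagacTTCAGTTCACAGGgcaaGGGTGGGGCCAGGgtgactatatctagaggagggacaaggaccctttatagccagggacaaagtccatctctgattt
Alppl2, chr1:87089929-87090128, minus strand: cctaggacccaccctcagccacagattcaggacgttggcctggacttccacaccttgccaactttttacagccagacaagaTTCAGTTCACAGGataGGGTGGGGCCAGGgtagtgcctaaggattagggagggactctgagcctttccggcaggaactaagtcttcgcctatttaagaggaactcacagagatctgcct
The first block, TTCAGTTCACAGG, began 122 bases before the start in Akp3, 94 in Alpi and 119 in Alppl2, and on either strand it was found in 0.0304% of 32851 promoter windows of 300 bases. The second block, GGGTGGGGCCAGG, followed after 4 bases in Akp3 and Alpi and after 3 bases in Alppl2, and was found in 0.0487% of windows. The blocks were chosen because the windows of the 3 clustered genes share them. Both blocks together were found in 3 windows, those of the 3 clustered genes, and neither was in the windows of Alpl. The letters CCCACCC, whose reverse complement opens the second block, are common. They were in the windows of Akp3, Alpi and Alppl2, in 1 of those of Alpl, and in 17.5% of all windows on either strand. The letters CAAAGTC, sought after the sequences were seen, were in the Akp3 and Alpi windows and in 1 of those of Alpl but not in that of Alppl2, and in 4.44% of all windows on either strand. The letters TATTTAAG were in the Akp3 and Alppl2 windows, about 30 bases before the start, and in 1.01% of all windows, but not in that of Alpi. These are matches of letters, and no binding was measured.

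Per length of gene, the 4 genes kept the same order in 8 of 8 libraries, with Alpi highest, then Akp3, Alppl2 and Alpl, on the scale of FPKM (fragments scaled to gene length and library depth, as deposited). Alpi had a level of 217 ± 53.1 FPKM in cKO and 198 ± 35.2 FPKM in WT (SD, n = 4 each), and ranked between 163rd and 287th of all genes in a library. Akp3 had 73.0 ± 26.2 FPKM in cKO and 26.1 ± 6.63 FPKM in WT. Alppl2 had 2.20 ± 0.711 FPKM in cKO and 2.71 ± 0.686 FPKM in WT, and Alpl had 0.0467 ± 0.0249 and 0.0434 ± 0.0430 FPKM. No 2 neighbours in this order overlapped in any library. The lowest Alpi level, 166 FPKM in cKO library 2, was above the highest Akp3 level, 106 FPKM in cKO library 1, and the lowest Akp3 level, 22.2 FPKM in WT library 1, was above the highest Alppl2 level, 3.46 FPKM in WT library 4.

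**Figure D1:**
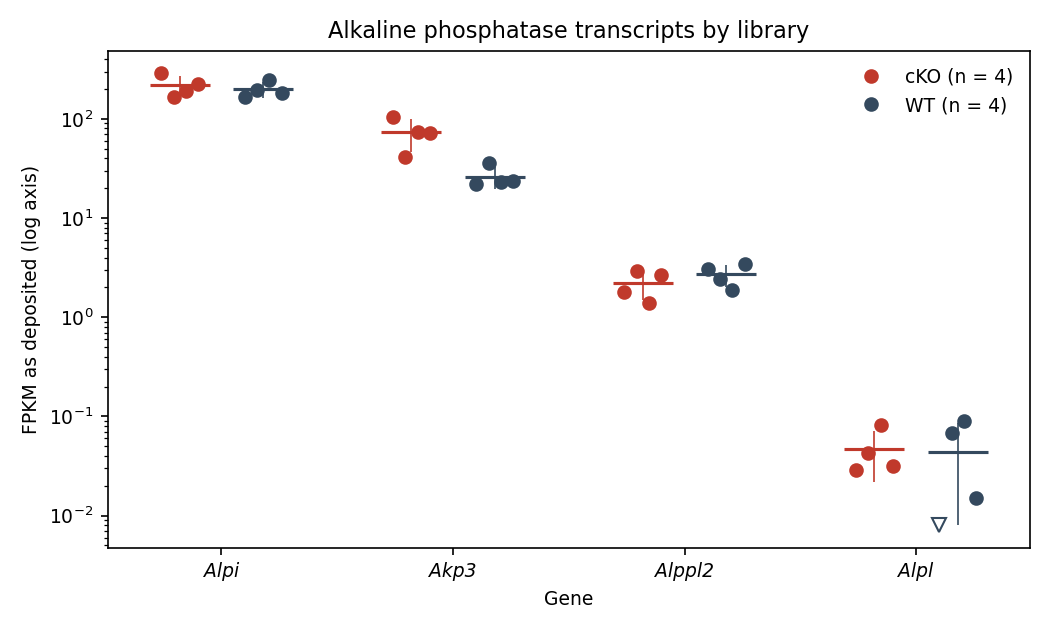
FPKM as deposited on a log axis for each gene, with 1 point per library, cKO left of WT, horizontal lines for means and vertical lines for 1 SD (cut for Alpl in WT, where the lower end lies below the plotted range). Akp3 in the 4 cKO libraries lies between 41.4 and 106 FPKM, above the 22.2 to 36.0 FPKM of WT, while the other genes overlap between groups. The open triangle is WT library 1, where Alpl is listed at 0.

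Akp3, the duodenal enzyme, had 225, 88.4, 155 and 151 CPM in cKO libraries 1 to 4 and 47.0, 76.3, 48.5 and 49.6 CPM in WT libraries 1 to 4. All cKO libraries were above all WT libraries, and these are the values for which the gene was chosen. The groups came closest at libraries 2, where 1497 counts in cKO (88.4 CPM, 95% exact Poisson interval 84.0 to 93.0, counting error only) stood against 1381 counts in WT (76.3 CPM, interval 72.4 to 80.5), a ratio of 1.16. The mean was 155 ± 55.7 CPM in cKO and 55.4 ± 14.01 CPM in WT (SD, n = 4 each). The log2 fold change of cKO over WT was 1.48 ± 0.27 (SE), a fold of 2.80. Groups did not overlap for 3.21% of the 14701 genes tested, 1.41% higher and 1.80% lower in cKO. Without both libraries 3 the log2 fold change was 1.43, and with sample quality weights 1.21.

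Akp3 made up 26.9, 20, 27.8 and 24.1% of the summed FPKM of Akp3 and Alpi in cKO libraries 1 to 4, and 11.8, 15.5, 8.44 and 11.3% in WT libraries 1 to 4. The mean share was 24.7 ± 3.502% in cKO and 11.8 ± 2.92% in WT (SD, n = 4 each). The groups did not overlap, and as the share contains Akp3 it is a description. Of the WT libraries, number 3 had the lowest share and the highest Alpi level, and number 2 the highest share. The sum of both genes was 290 ± 78.2 FPKM in cKO and 225 ± 35.6 FPKM in WT, and overlapped between groups: cKO libraries had 393, 207, 263 and 297 FPKM, and WT libraries 188, 232, 271 and 207 FPKM. Alpi remained the larger component in every library, exceeding Akp3 by a factor of 2.60 to 4 in cKO and 5.43 to 10.9 in WT.

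**Figure D2:**
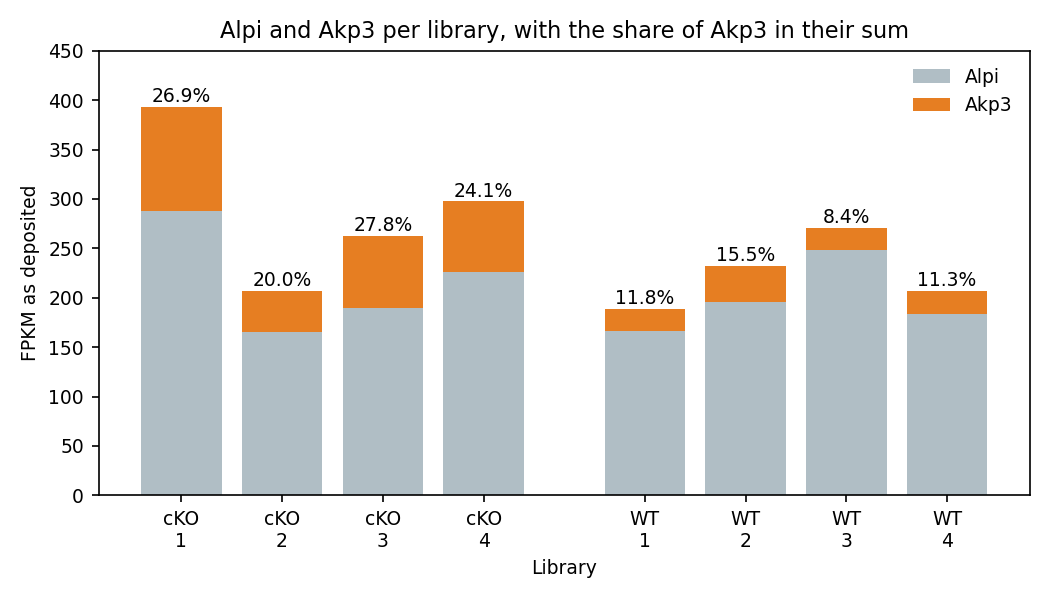
Stacked bars of the FPKM of Alpi (grey) and Akp3 (orange) in each library, cKO left and WT right, with the percentage of Akp3 in their sum above each bar. The share is between 20 and 27.8% in cKO and between 8.44 and 15.5% in WT.

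Alpi, the enzyme of the whole intestine, had 682, 394, 447 and 531 CPM in cKO libraries 1 to 4 and 393, 462, 586 and 435 CPM in WT libraries 1 to 4. The groups overlapped, with the highest value in cKO library 1 and the lowest in WT library 1. The cKO over WT log2 fold change was 0.13 ± 0.18 (SE), with an edgeR adjusted p of 0.927 and an exact two-sided permutation p of 0.600. The 95% interval of the fold was 0.830 to 1.45, so a fold anywhere between those bounds remained possible at this spread. Without cKO library 1 the log2 fold change was -0.035, and without both libraries 3 it was 0.32 (edgeR adjusted p = 0.998).

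Alppl2, the embryonic enzyme, had 4.15, 6.68, 3.20 and 6.10 CPM in cKO libraries 1 to 4 and 6.95, 5.53, 4.33 and 7.89 CPM in WT libraries 1 to 4, from 57 to 131 counts a library. The groups overlapped. On the log2 scale cKO over WT gave -0.30 ± 0.28 (SE; edgeR adjusted p = 0.920, exact two-sided permutation p = 0.371), with a 95% interval of the fold from 0.535 to 1.24. In both genotypes library 3 had the least Alppl2, and without cKO library 3 the log2 value was -0.13. Alppl2 lies within the noncoding gene Gm29371 of the other strand, which had 2 counts in all.

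Alpl, the tissue-nonspecific enzyme, had 2, 3, 6 and 2 counts in cKO libraries 1 to 4 and 0, 5, 6 and 1 counts in WT libraries 1 to 4, in all 13 against 12. It did not pass the filter on low counts, and without a filter cKO over WT gave 0.13 ± 0.87 on the log2 scale (SE; edgeR adjusted p = 0.992, exact two-sided permutation p = 0.943). The 95% interval of its fold was 0.323 to 3.69, so a fold anywhere between those bounds remained possible at this depth. Of 14 markers of neutrophils, which are known to carry this enzyme, and of macrophages, 5 had 0 counts in every library (Elane, Ly6g, Mpo, S100a8 and S100a9), and the 14 summed to 9.95 to 15.6 CPM in cKO and 8.19 to 10.7 CPM in WT. The filter on low counts kept 4 of the 14, and 3 of these had positive log2 fold changes, with a median of 0.50. Of the 4 edgeR called 0, against 0.0136% of all tested genes. Among the 4 Csf1r was at 1.27 ± 0.904 CPM in cKO and 0.398 ± 0.216 CPM in WT (SD), with overlap between groups.

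Of the 14701 genes tested, 2 (0.0136%) passed the adjusted threshold of edgeR, Popdc3 higher (0.00680%) and Ces1f lower (0.00680%) in cKO. Alpi and Alppl2 were not among them, and 0 of the 2 had an unadjusted p under 0.05, as 3.90% of all tested genes did. DESeq2, which called 41 of 27717 genes tested, did not call them either. Not every gene had an adjusted p from DESeq2, and Alpl had none.

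Because both intestinal enzymes are made in enterocytes, their levels were set beside a score of 19 other enterocyte markers, for each library the median of their log2 CPM after subtracting each gene's 8-library mean. The score was 0.34, -0.16, 0.052 and -0.14 in cKO libraries 1 to 4 and -0.49, -0.18, 0.84 and -0.35 in WT libraries 1 to 4, so it overlapped between groups. On the same centred log2 scale Alpi was at 0.50, -0.29, -0.11 and 0.14 in cKO and at -0.30, -0.064, 0.28 and -0.15 in WT. Its highest value in each genotype was in the library with the highest enterocyte score, number 1 in cKO and number 3 in WT. Akp3 was at 1.33, -0.014, 0.79 and 0.76 in cKO and at -0.92, -0.23, -0.88 and -0.85 in WT. In cKO its highest value also fell in library 1 and its lowest in library 2, which had the lowest score. In WT library 3, which had the highest enterocyte score of all 8, Akp3 was at 48.5 CPM, close to the 47.0 and 49.6 CPM of WT libraries 1 and 4. The part of enterocyte content in the difference of Akp3 was not tested.

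**Figure D3:**
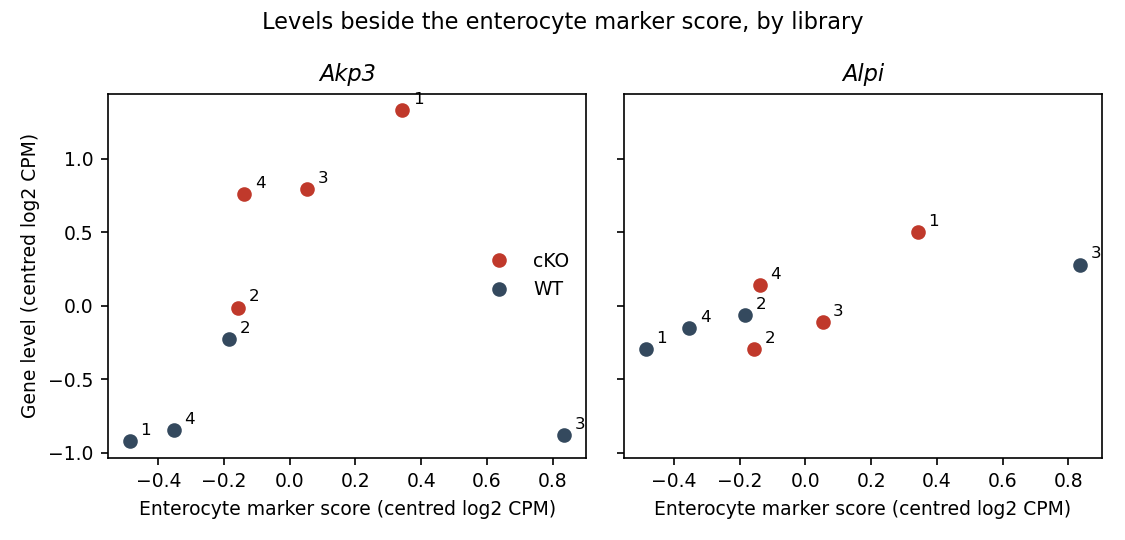
Centred log2 CPM of Akp3 (left) and Alpi (right) against the enterocyte marker score, with 1 point per library numbered by replicate, cKO in red and WT in dark blue. Akp3 in WT library 3 is at -0.88 at a score of 0.84, while Alpi there is at 0.28.

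The cluster has few expressed neighbours. Within 250000 bases on either side lie 23 other genes, of which 4 passed the filter on low counts. Of these 4 edgeR called 0, against 0.0136% of all tested genes. At an unadjusted edgeR p under 0.05 there were also 0, against 3.90% of all tested genes. DESeq2 called 0 of the 4, against 41 of 27717 genes tested. At such shares 0 of 4 genes shows nothing particular to the neighbours. Dis3l2, an exoribonuclease, had a log2 fold change of 0.18 ± 0.13 (SE), and the processed pseudogene Gm6136, which can share reads with its parent gene, 0.20 ± 0.13. Eif4e2, a cap-binding protein, was at 80.7 ± 6.67 CPM in cKO and 79.4 ± 1.88 CPM in WT. Its partner Gigyf2 had a log2 fold change of -0.18 ± 0.13. Without both libraries 3 these values were 0.046 for Dis3l2, 0.060 for Gm6136, -0.012 for Eif4e2 and -0.072 for Gigyf2, and without cKO library 3 alone they were 0.092, 0.11, -0.021 and -0.065. The pseudogene of the family, Akp-ps1, had 0 counts in all 8 libraries.

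**Figure D4:**
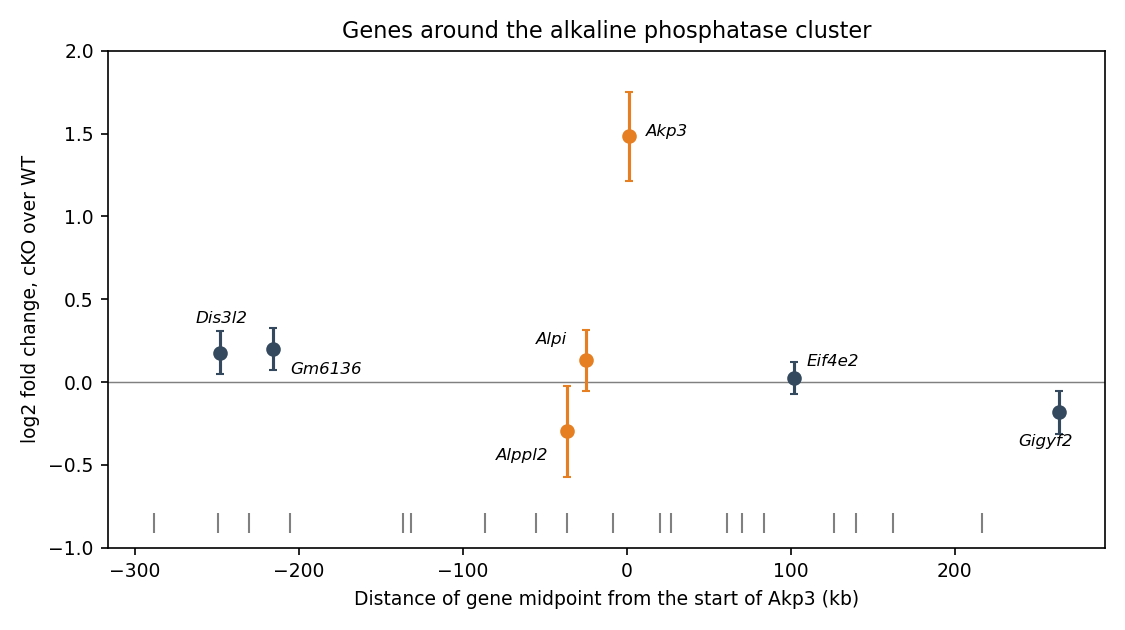
log2 fold change of cKO over WT with 1 SE for the tested genes around the cluster, by distance of the gene's midpoint from the start of Akp3 in kilobases; members are orange and other genes dark blue, and grey ticks at the foot are genes that were not tested. Akp3 is at 1.48, and the other 6 tested genes lie between -0.30 and 0.20.

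The genes whose pattern over the 8 libraries was most like that of Akp3 were sought by the root mean square difference of centred log2 CPM, among 13507 genes with a mean of at least 1 CPM. The nearest was S100g, the calcium-binding protein calbindin-D9k of duodenal enterocytes and a target of the vitamin D receptor, at 0.30, against a median of 0.85 over all these genes. S100g had 88.3, 22.3, 56.1 and 52.8 CPM in cKO libraries 1 to 4 and 13.6, 20.01, 11.9 and 22.0 CPM in WT libraries 1 to 4. Its cKO libraries had the same order as those of Akp3, with 1 highest, then 3, 4 and 2, while in WT the orders differed. As the search picked S100g for its likeness over these same libraries, the shared order is a description only. The lowest cKO library lay just above the highest WT library. For S100g cKO over WT gave 1.70 ± 0.39 on the log2 scale (SE), given with no test because the search was for the pattern of Akp3.

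After S100g came Defa35 at 0.37, a Paneth cell defensin of a family with near-identical copies, so its counts are uncertain, and Plaur at 0.40, the urokinase receptor. Tmem252 followed at 0.42, then the forkhead factor Foxq1 at 0.43 and Nr0b2, a nuclear receptor without a DNA-binding domain, at 0.49. Tmem252 had 53.4 ± 10.1 CPM in cKO and 30.4 ± 5.02 CPM in WT, and Nr0b2 had 4.90 ± 0.752 and 2.13 ± 0.728 CPM (SD, n = 4 each). A likeness to Akp3 includes being higher in cKO, so the directions of these genes are fixed by the search. The pattern of Alpi differed from that of Akp3 by 0.73 and that of Alppl2 by 1.10 on the same measure. The genes nearest to Alpi were Tnfrsf10b, a death receptor, at 0.087, Ehbp1l1 at 0.10 and the kinesin Kifc2 at 0.12, against a median of 0.35.

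**Figure D5:**
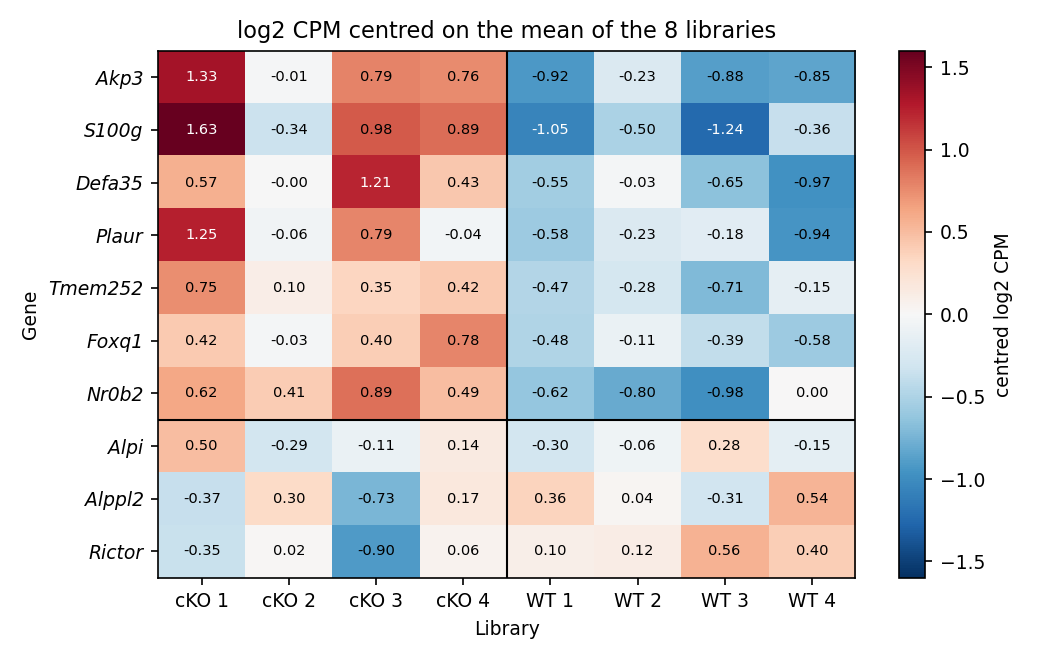
Centred log2 CPM of Akp3, the 6 genes nearest to it, Alpi, Alppl2 and Rictor in each library, cKO left and WT right of the vertical line, with red above and blue below the mean of the 8 libraries. Akp3 is highest at 1.33 (cKO 1) and lowest at -0.92 (WT 1), and S100g is highest at 1.63 (cKO 1) and lowest at -1.24 (WT 3).

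Genes that act with alkaline phosphatases were examined as lists. Over all 18 lists edgeR called 0 of 220 distinct genes, against 2 of all 14701 tested. An unadjusted edgeR p under 0.05 was found for 10 of the 220, and for 3.90% of all tested genes. DESeq2, which called 41 of 27717 genes tested (not all with an adjusted p), called 2 list genes, Car4 and S100g. S100g is also the gene found by its likeness to Akp3, so its call is a description only. For comparison, 50.5% of all tested genes had a positive log2 fold change, with a median of 0.0022. In the breakdown of extracellular nucleotides, where alkaline phosphatases act beside other ectoenzymes, 10 of 16 tested genes had positive values, with a median of 0.064. Slc29a2, an equilibrative nucleoside transporter, had 6.08 ± 1.11 CPM in cKO and 3.84 ± 0.697 CPM in WT (SD, n = 4 each; log2 fold change 0.66 ± 0.22, edgeR adjusted p = 0.920). Enpp1, which makes pyrophosphate, had 16.1 ± 2.56 and 19.9 ± 1.37 CPM. Both were without overlap between groups, as were 3.21% of all genes. Ada, the adenosine deaminase of the villus tip, had 153, 154, 160 and 78.9 CPM in cKO libraries 1 to 4 and 52.0, 59.4, 143 and 33.4 CPM in WT libraries 1 to 4, so the groups overlapped. Its log2 fold change was 0.93 ± 0.45 (SE), and 1.41 without both libraries 3.

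Among genes of lipopolysaccharide sensing, 9 of 13 had positive values, with a median of 0.047. Ly96, the co-receptor of Tlr4, was at 1.78 ± 0.574 CPM in cKO and 2.87 ± 0.319 CPM in WT (log2 fold change -0.69 ± 0.27 SE, edgeR adjusted p = 0.920). Lbp went the other way, at 2.66 ± 2.105 CPM in cKO and 1.33 ± 0.167 CPM in WT, with overlap between groups. The log2 fold change of Lbp was 1.004 ± 0.454 (SE, edgeR adjusted p = 0.9205). For the zinc that the enzymes need, 7 of 9 genes had positive values, with a median of 0.15. Slc30a6, a subunit of the transporter that loads zinc into secreted enzymes, was at 27.6 ± 3.003 CPM in cKO and 24.9 ± 1.18 CPM in WT, and the zinc importer Slc39a4 at 153 ± 50.3 and 121 ± 34.9 CPM. Of the genes that make and attach the GPI anchor, 14 of 28 had positive and 14 negative values, with a median of -0.0049. Pgap1, which trims the anchor's lipid, was at 42.9 ± 9.91 CPM in cKO and 55.2 ± 0.791 CPM in WT. None of these passed the adjusted threshold of edgeR.

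Of 24 transcription factors that act on intestinal alkaline phosphatase or other enterocyte genes, 17 had positive values, with a median of 0.031. Thrb, a thyroid hormone receptor, was at 34.8 ± 8.30 CPM in cKO and 46.7 ± 3.84 CPM in WT (log2 fold change -0.43 ± 0.16 SE, edgeR adjusted p = 0.920). Without both libraries 3 the log2 fold change of Thrb was -0.27. Ppara, a fatty acid receptor, was at 46.3 ± 9.89 and 57.5 ± 6.32 CPM. Vdr, the vitamin D receptor, was at 680 ± 106 CPM in cKO and 585 ± 63.4 CPM in WT, with a log2 fold change of 0.22 ± 0.14. The groups overlapped for all 24, and they did not overlap for 3.21% of all tested genes.

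Of the other brush border hydrolases 4 of 18 had positive and 14 negative values, with a median of -0.15. WT library 3 weighs on these values, since the list score was 0.93 there and -0.33 to -0.16 in the other WT libraries. In cKO the score was -0.22 to 0.33, so the groups overlapped. The log2 fold change farthest from 0 was that of Enpp7, a sphingomyelinase, at -1.31 ± 0.61. Its 219 CPM in WT library 3 stood far above the 33.0 to 55.0 CPM of the other WT libraries. Without WT library 3 the log2 fold change of Enpp7 was -0.31. Enterocyte markers had 12 positive values of 20 and a median of 0.067. Since Akp3 is known as a gene of the duodenum, genes of the proximal and of the distal gut were counted too. Of 17 proximal genes 12 had positive values, with a median of 0.065. S100g, found above by its likeness to Akp3, belongs to this list. It was the 1 member whose cKO and WT libraries did not overlap, as was so for 3.21% of all tested genes. The duodenal factors Gata4 (241 ± 53.4 CPM in cKO and 238 ± 6.95 CPM in WT) and Pdx1 (9.35 ± 3.97 and 8.28 ± 3.45 CPM) overlapped between groups. Of 13 distal genes 9 had positive values, with a median of 0.069. Car4, a carbonic anhydrase, had 36.0 ± 11.2 CPM in cKO and 94.2 ± 14.1 CPM in WT, and was the 1 distal gene without overlap. Fat uptake genes had a median of 0.061 (11 of 18 positive) and phosphate transport genes a median of -0.041 (4 of 8).

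Markers of other cells were present at varied levels. T cell and intraepithelial lymphocyte markers were positive for 16 of 16 genes, with a median of 0.40. Of the 16 edgeR called 0, against 0.0136% of all tested genes. The sum of these markers was 557, 244, 788 and 272 CPM in cKO libraries 1 to 4. In WT libraries 1 to 4 it was 231, 187, 348 and 625 CPM. B and plasma cell markers summed to 242 to 408 CPM in cKO and 234 to 271 CPM in WT. Endothelial markers summed to 5.45 to 9.06 CPM in cKO and 5.89 to 11.1 CPM in WT, fibroblast and muscle markers to 14.2 to 23.8 and 11.8 to 18.04 CPM, and pancreatic acinar markers to 4.55 to 7.30 and 4.03 to 8.85 CPM. Crypt and proliferation markers had 7 positive and 7 negative values. Beside the sums of T cell markers, Akp3 was at 225, 88.4, 155 and 151 CPM in cKO libraries 1 to 4. In WT libraries 1 to 4 Akp3 was at 47.0, 76.3, 48.5 and 49.6 CPM. The part of these cells in the level of Akp3 was not tested.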

How the data were processed

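RNA of intestinal epithelial cells was sequenced in 4 cKO and 4 WT libraries on an Illumina NovaSeq, and Hisat2 and then Stringtie were run, per the series' design text. No version, build, counting program or kit is stated there. The authors deposited whole-number read counts per gene and FPKM values for the same genes. Coordinates of the members match GENCODE M21 (GRCm38). The genotype difference was tested by quasi-likelihood in edgeR 4.0.16 (R 4.3.3, robust fit, TMM factors, default filter on low counts, 14701 genes kept, Benjamini-Hochberg adjustment, threshold 0.05), with genotype as the single term. CPM uses TMM-scaled totals. Each SE was taken as the absolute estimate divided by the root of F. The step was tested on simulated data. Promoters are RefSeq windows of GRCm38.p6, and transcripts were aligned with Biopython 1.88.

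The members and lists were chosen with earlier results of these data known. Genes named are the members, Rictor, tested genes within 250000 bases of the cluster, the 6 genes nearest to Akp3 and 3 nearest to Alpi (prior count 2), and in each list called genes and the 3 with the smallest p, of which only some are printed; Ada (4th by p in its list), Epcam, Vil1, Gata4, Pdx1, Akp-ps1, Gm29371, Popdc3, Ces1f and the 5 neutrophil genes at 0 were named outside this rule after their values were seen. Alternatives were other size factors and filters, leaving out libraries, a replicate block, limma 3.58.1 on counts with quality weights and on log2(FPKM + 0.1) or log2(FPKM + 1), and DESeq2 1.42.0. Libraries all differed beyond counting noise (chi-square per degree of freedom at least 10.7). Protein identity had been planned, and coding identity was used in its place.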

Additional observations from a re-analysis of the deposited data

Results flagged for a closer look

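Of 98 sets of 4 values, 1 per library of a genotype, 12 held an extreme value whose gap to its nearest neighbour took up most of the range. Chance alone gives about 1 in 20, and many sets share genes or libraries.

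Akp3 reached 76.3 CPM in WT library 2, while WT libraries 1, 3 and 4 had 47.0 to 49.6 CPM. For Ada the lowest cKO value was 78.9 CPM (library 4), and the others were 153 to 160 CPM. Ly96 was at 2.63 CPM in cKO library 4 and at 1.42 to 1.57 CPM in the other cKO libraries. Slc30a6 was at 32.1 CPM in cKO library 1 and at 25.8 to 26.5 CPM in the others. Enpp1 reached 21.9 CPM in WT library 2, with 18.98 to 19.4 CPM elsewhere in WT. Enpp7 reached 219 CPM in WT library 3, with 33.0 to 55.0 CPM elsewhere in WT.

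In WT library 3 the scores (centred log2 CPM) of 4 lists stood above those of the other WT libraries: brush border hydrolases at 0.93 (others -0.33 to -0.16), fat uptake at 0.72 (-0.31 to -0.16), nucleotide breakdown at 0.38 (-0.14 to -0.052) and phosphate transport at 0.28 (-0.068 to -0.022). The transcription factor list was at 0.17 in cKO library 3, with -0.031 to -0.021 in the other cKO libraries. Lipopolysaccharide sensing was at -0.13 in WT library 4, with -0.032 to -0.030 in the other WT libraries.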

How the results depend on the processing

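The log2 fold change of Akp3 ran from 1.21 to 1.68 over 19 alternatives and that of Alppl2 from -0.46 to -0.12. Alpi was at -0.035 without cKO library 1, and ran from -0.035 to 0.26 over the fits without 1 library (adjusted p 0.774 to 0.9995 over all alternatives). Eif4e2 was at -0.043 with quality weights, -0.021 without cKO library 3 (up to 0.081 without another library) and -0.012 without both libraries 3; the cause was not tested. The difference in the share of Akp3 ran from 11.8 to 14.5 percentage points. Genes called by edgeR numbered 2, 10 without a filter, 4 without both libraries 3, from 0 to 3 without 1 library, 0 with the replicate block (554 at an unadjusted p under 0.05), and 41 by DESeq2, 8 with quality weights, and 0 by limma on log2(FPKM + 1) or with a mean FPKM of at least 0.5 (1038 and 571 unadjusted). Without WT library 1, 2 or 3 it was 0, with 529, 424 and 648 unadjusted. List genes called numbered 0, and 2 by DESeq2; neighbours called were 0 in every fit. Exact windows shared with another gene were 0% at 100 and 150 bases, and 2.15% for Akp3 and 2.40% for Alpi at 50 bases. Of 473 alternative values of 25 other genes, 463 kept direction and side of the threshold, 3 turned and 7 passed it.

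Deviations of same-numbered libraries correlated at -0.13, 0.10, 0.14 and 0.16 for numbers 1 to 4, and 4 of 8 libraries correlated best with their own number. These values do not settle whether the numbers mark pairs, and the main fit did not take them as pairs. With the block Akp3 was at 1.45 and Alpi at 0.12. Alpl is limited by depth, with 0 to 6 counts a library.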
